A study of Homo sapiens with 6 samples.

Results

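Of the 1155 mature miRNAs in the table, 9 belong to the set of p53-responsive miRNAs described here. They were taken by name: the miR-34 family (hsa-miR-34a-5p, hsa-miR-34a-3p, hsa-miR-34b-5p and hsa-miR-34c-5p), hsa-miR-192-5p, hsa-miR-194-5p and hsa-miR-215-5p, and the main arms hsa-miR-143-3p and hsa-miR-145-5p. The species prefix hsa is left out below. All 9 had a row in the table. Small RNA was sequenced from U2OS, an established human osteosarcoma cell line, in 3 libraries labelled LINC00673 and 3 labelled NC. The series' design text describes the tested cells as a stable transfection with an shRNA against LINC00673, a long non-coding RNA, and the comparison cells as wild type. Titles of both groups start with Lv, and whether NC cells carried a control construct is not given in the labels. The labels name no clone and no separate cultures, so the p-values rest on the spread between these libraries, which may be technical.

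The transcription factor p53 is activated by DNA damage and oncogenic stress. The miR-34 genes are direct transcriptional targets of p53, and their mature 5p arms repress transcripts of cell cycle and survival proteins such as CDK6, MET and BCL2. The genes of miR-192, miR-194 and miR-215 are also reported as p53-induced, and miR-143 and miR-145 are known for a p53-dependent step in the maturation of their precursors.

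A mature miRNA recognises its targets mainly through its seed, bases 2 to 8 from the 5′ end. Mature sequences of 8 of the 9 members were found in RefSeq (GRCh38.p14) and are printed here with the seed in capitals, to show which members share one; miR-34c-5p is not among them.
hsa-miR-34a-5p: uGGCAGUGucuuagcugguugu
hsa-miR-34b-5p: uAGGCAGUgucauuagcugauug
hsa-miR-34a-3p: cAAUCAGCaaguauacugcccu
hsa-miR-192-5p: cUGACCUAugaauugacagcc
hsa-miR-215-5p: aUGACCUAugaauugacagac
hsa-miR-194-5p: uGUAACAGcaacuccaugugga
hsa-miR-143-3p: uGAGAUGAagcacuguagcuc
hsa-miR-145-5p: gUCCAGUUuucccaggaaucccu
Of these, miR-192-5p and miR-215-5p share a seed. They are identical at 19 of 21 bases and differ by C1A and C20A (the base of miR-192-5p, the position counted from its 5′ end, then the base of miR-215-5p). The handling of reads that fit both was not given in the sources used here, which leaves the rarer miR-215-5p uncertain. The seed of miR-34b-5p is that of miR-34a-5p moved by 1 base. The seed of miR-34c-5p was not compared.

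The genes lie in 5 places of the genome (GRCh38; hosts on the same strand from GENCODE 29). MIR34A (chr1:9151668-9151777, minus strand) lies whole in an exon of the long non-coding gene MIR34AHG. MIR34B (chr11:111512938-111513021) and MIR34C (chr11:111513439-111513515) follow each other on the plus strand with 417 bases between them. MIR192 (chr11:64891137-64891246) and MIR194-2 (chr11:64891355-64891439) are 108 bases apart on the minus strand, both in exons of MIR194-2HG. MIR215 (chr1:220117853-220117962) and MIR194-1 (chr1:220118157-220118241) are 194 bases apart on the minus strand, with no host annotated on it. Since miR-194-5p is made from 2 genes with the same mature sequence, its reads cannot be split between the clusters. MIR143 (chr5:149428918-149429023, plus strand) lies in an exon of CARMN and MIR145 (chr5:149430646-149430733) in an intron of the same gene, 1622 bases apart.

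Levels were given as CPM, read counts divided by the total of their library and brought to one common total. The totals behind them, recovered from the steps between values, came to 380298 to 762663 reads in LINC00673 cells and 295567 to 483322 reads in NC cells, so the LINC00673 libraries were on average deeper. One read was worth 1.31 to 2.63 CPM in LINC00673 cells and 2.07 to 3.38 CPM in NC cells. LINC00673 itself has no row in a table of miRNAs, so its knockdown was not checked here. Adapter ligation favours some sequences, so CPM orders different miRNAs only roughly. As a check on the cell line, miRNAs used as markers of other lineages were looked up. Of these, miR-223-3p, miR-451a, miR-208a-3p and miR-429 were not analysed here. The liver miRNA miR-122-5p stood at 14.8 to 15.8 CPM in LINC00673 cells and 9.63 to 20.3 CPM in NC cells. The 3 listed blood miRNAs of 5 summed to 184 to 242 CPM in LINC00673 cells and 153 to 237 CPM in NC cells. Most of this was miR-142-3p, with means of 166 CPM in LINC00673 cells and 165 CPM in NC cells. The 3 listed muscle miRNAs of 4 summed to 34.2 to 40.6 CPM in LINC00673 cells and 37.2 to 73.9 CPM in NC cells. The 4 listed epithelial miRNAs of 5 summed to 2.63 to 16.2 CPM in LINC00673 cells and 12.4 to 23.7 CPM in NC cells. The endothelial miR-126-3p was at 2987 to 3931 CPM in LINC00673 cells and 3617 to 5437 CPM in NC cells. The part of these cell types in the results was not tested.

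The set was dominated by its pair of abundant members. Of 5937 reads assigned to the 9 members over all 6 libraries, miR-34a-5p took 58.0% and miR-192-5p 37.5%. By mean CPM they ranked 53 and 71 among the 1155 miRNAs. Next came miR-194-5p at rank 237 and miR-143-3p at rank 242, while the other 5 members had a mean under 10 CPM. The least abundant were miR-34b-5p, miR-34c-5p and miR-145-5p, with 1, 10 and 6 reads over all libraries.

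**Figure D1:**
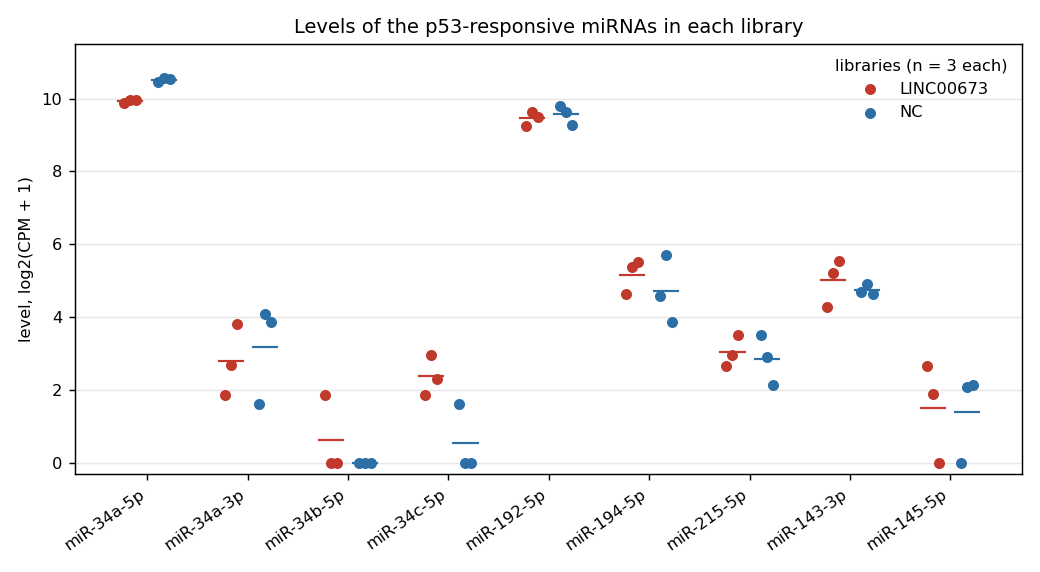
Level of each of the 9 miRNAs in each library as log2(CPM + 1), with LINC00673 libraries in red and NC libraries in blue (n = 3 each) and bars at the group means on this scale. The points of miR-34a-5p do not overlap between groups, the lowest LINC00673 and the highest NC point of miR-34c-5p are 1 read each, and the points at 0 are libraries with no read.

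Among the members, miR-34a-5p differed most clearly between the groups, and all its LINC00673 values lay below its NC values. In bulk RNA, fewer cells that carry a miRNA and less of it per cell cannot be told apart. It stood at 933, 998 and 997 CPM in LINC00673 replicates 1, 2 and 3 (355, 741 and 760 reads), against 1397, 1509 and 1499 CPM in NC replicates 1, 2 and 3 (675, 470 and 443 reads). All LINC00673 libraries were below all NC libraries, as were 7.65% of the miRNAs tested, and the 95% exact Poisson intervals for counting error did not overlap either, with a highest upper bound of 1073 CPM in LINC00673 cells and a lowest lower bound of 1293 CPM in NC cells. The means were 976 ± 36.9 CPM in LINC00673 cells and 1468 ± 62.2 CPM in NC cells (SD, n = 3 each). This spread is as small as read counting alone gives: the coefficient of variation was 3.78% in LINC00673 cells and 4.24% in NC cells, where counting error predicts 4.23% and 4.45%.

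**Figure D2:**
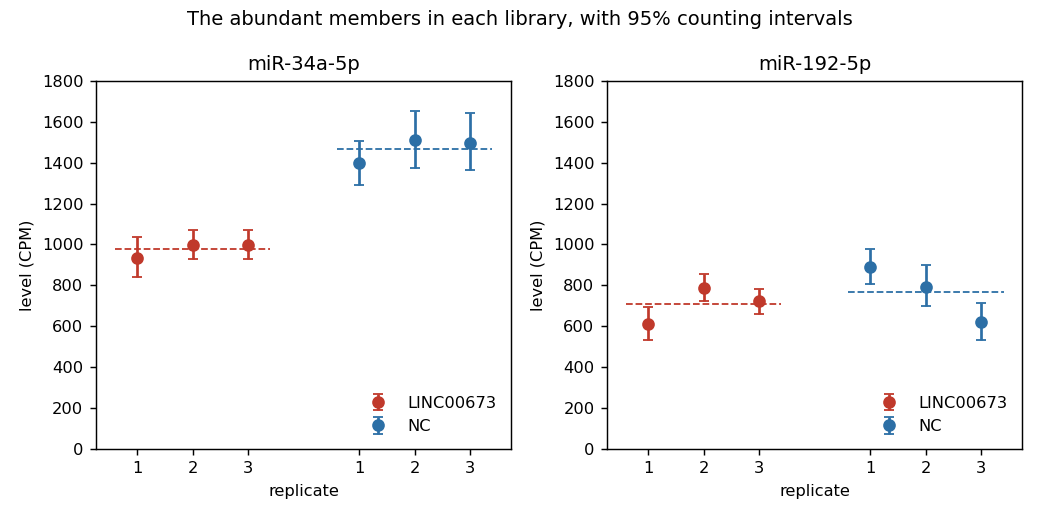
Level in CPM of miR-34a-5p (left) and miR-192-5p (right) in each replicate, with 95% exact Poisson intervals as error bars and group means as dashed lines. For miR-34a-5p the LINC00673 libraries at 933 to 998 CPM lie below the NC libraries at 1397 to 1509 CPM, whereas for miR-192-5p the groups overlap.

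On the log2(CPM + 1) scale the difference for miR-34a-5p, LINC00673 minus NC, was -0.59 with a standard error of 0.17 (95% interval -0.94 to -0.24), a fold of 0.665 (0.522 to 0.848). It did not pass the threshold of 0.05 in limma after Benjamini-Hochberg adjustment over the 810 miRNAs that averaged 1 CPM or more (adjusted p = 0.156), where 0.247% of the miRNAs tested passed in either direction. By unadjusted p it ranked 10 of 810. The standard error in limma is partly taken from other miRNAs of similar level, so these p-values do not measure the spread of miR-34a-5p alone. Without the intensity trend, miR-34a-5p had a limma adjusted p of 0.526. Among the 164 miRNAs of at least 100 CPM, 10, counting miR-34a-5p itself, had a log2 difference as low or lower (6.10%). In the other direction, 15 were higher by at least the same amount. With the recovered reads as input, the quasi-likelihood test of edgeR with TMM scaling gave a log2 difference of -0.48 and did not call it either (adjusted p = 0.197, 2.72% of the miRNAs called in either direction). DESeq2 gave -0.59 and called it as lower (adjusted p = 0.00518), among 4.69% called in that direction of the 213 miRNAs to which it gave an adjusted p. The 3 tools scale the libraries differently, and relative to the median of all miRNAs tested the difference was -0.65 in limma, -0.60 in edgeR and -0.60 in DESeq2.

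The direction for miR-34a-5p was the same in all 31 alternative fits, with log2 differences of -0.64 to -0.44. Part of this agreement was fixed in advance. Since the groups do not overlap, leaving out a library or changing the pseudocount could not change the sign in limma. Changes to the filter, the trend or the replicate block could not move limma's log2 difference at all. The call for miR-34a-5p was not stable. Without NC replicate 3, limma passed it (adjusted p = 0.0485), in a fit that called 28 miRNAs, against 2 with all libraries. DESeq2 lost the call without LINC00673 replicate 1, 2 or 3 or without NC replicate 2 (adjusted p = 0.347, 0.999, 0.996 and 0.403), and kept it without NC replicate 1 or 3 (adjusted p = 0.0317 and 0.0247).

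**Figure D3:**
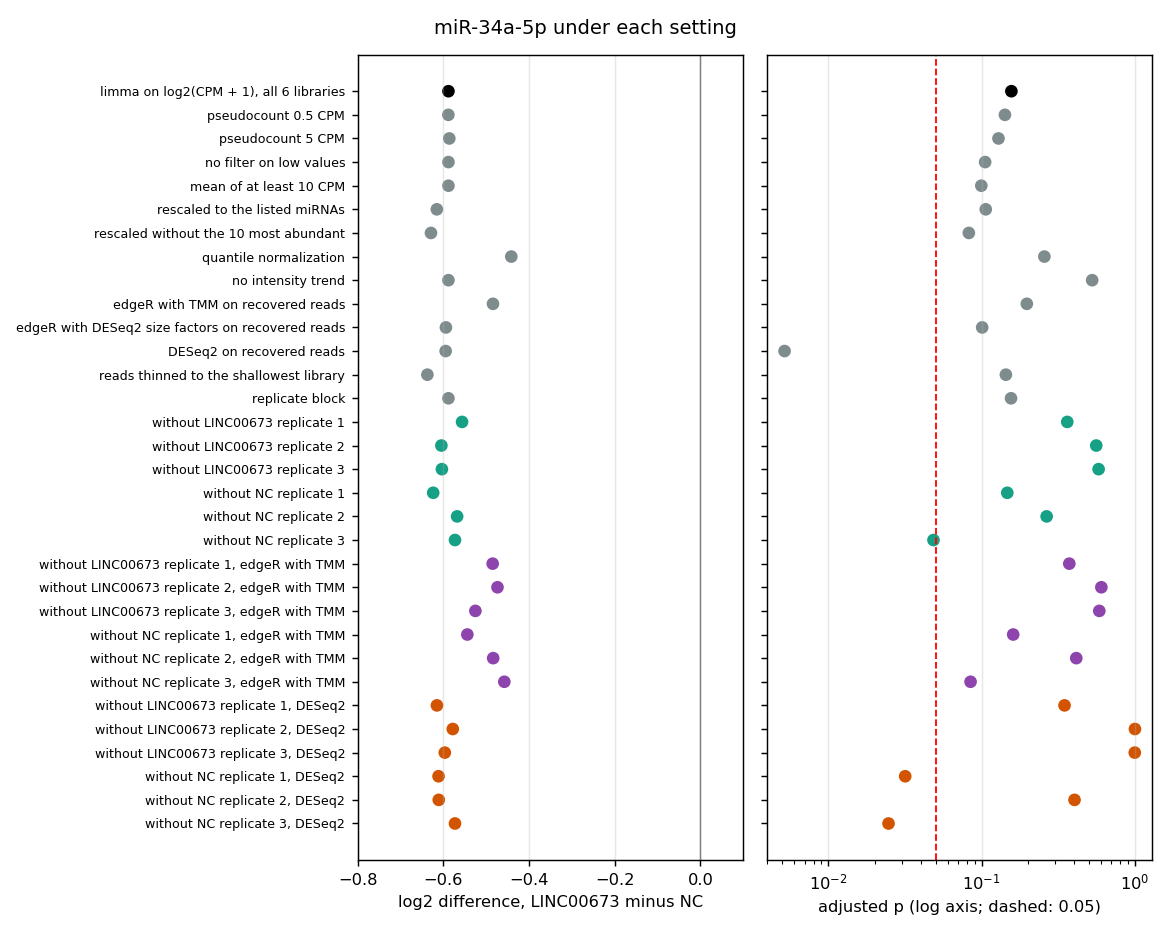
The log2 difference of miR-34a-5p, LINC00673 minus NC (left), and its adjusted p on a log axis (right) under each setting, with all-library limma in black, other settings in grey and left-out libraries in green (limma), purple (edgeR) and orange (DESeq2). All differences lie between -0.64 and -0.44, while the adjusted p spans 0.00518 to 0.999 around the dashed threshold of 0.05.

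Both arms of the MIR34A precursor are members, which allows the arm usage to be followed. The precursor is printed here in the 5′ to 3′ direction, with the 2 mature arms in capitals.
MIR34A: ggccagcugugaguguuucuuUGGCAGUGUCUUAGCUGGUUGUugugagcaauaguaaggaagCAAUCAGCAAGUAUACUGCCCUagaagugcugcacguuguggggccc
The first capital stretch is miR-34a-5p, the guide strand, and the second miR-34a-3p, the strand that is mostly discarded. The 3p arm had 1, 4 and 10 reads in LINC00673 replicates 1, 2 and 3 (2.63, 5.39 and 13.1 CPM), against 1, 5 and 4 reads in NC replicates 1, 2 and 3 (2.07, 16.1 and 13.5 CPM). Its groups overlapped, and the log2 difference of -0.41 had a 95% interval of -1.997 to 1.19 (limma adjusted p = 0.931). The 5p arm made up 99.7%, 99.5% and 98.7% of the reads of both arms in LINC00673 replicates 1, 2 and 3, against 99.9%, 98.9% and 99.1% in NC replicates 1, 2 and 3. The mean share was 99.3 ± 0.529% in LINC00673 cells and 99.3 ± 0.483% in NC cells (SD, n = 3 each), a difference of -0.00703 percentage points (exact permutation test, two-sided, p = 1, where 0.1 is the smallest possible). Over all libraries 3444 of 3469 reads were 5p (99.3%, exact Clopper-Pearson 95% interval 98.9% to 99.5%).

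The other miR-34 genes, MIR34B and MIR34C, are known for high expression in ciliated epithelium and testis. One read of miR-34b-5p was counted, in LINC00673 replicate 1 (2.63 CPM), and none in the other 5 libraries, where the floor of 3 reads corresponds to 3.93 to 10.15 CPM. It did not reach the mean of 1 CPM needed for a test. The level of miR-34c-5p was 2.63, 6.74 and 3.93 CPM in LINC00673 replicates 1, 2 and 3 (1, 5 and 3 reads), against 2.07, 0 and 0 CPM in NC replicates 1, 2 and 3 (1, 0 and 0 reads). Its LINC00673 libraries all lay above its NC libraries, as for 7.78% of the miRNAs tested, but at levels under or near the floor of 3 reads in every library. In replicate 1 of both groups the value is 1 read, so their order is set by the library totals alone. Pooled over libraries, 9 reads in LINC00673 cells against 1 read in NC cells give a ratio of read rates of 5.21 with an exact 95% interval of 0.721 to 228 for counting error (log2 difference 1.83 with a 95% interval of -0.07 to 3.73, limma adjusted p = 0.445, edgeR adjusted p = 0.527).

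Some miRNAs outside the set share these seeds. They are shown because a shared seed is the main determinant of which targets a miRNA recognises.
hsa-miR-449a: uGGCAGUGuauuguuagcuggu
hsa-miR-449c-5p: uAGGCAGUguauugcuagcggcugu
hsa-miR-2682-5p: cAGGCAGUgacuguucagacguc
The seed of miR-34a-5p is also that of miR-449a, which had 3 reads in LINC00673 cells and 3 reads in NC cells. The seed of miR-34b-5p is also that of miR-449c-5p, with 8 reads in LINC00673 cells and 4 reads in NC cells, and of miR-2682-5p, with 6 reads in LINC00673 cells and 7 in NC cells. Against 1856 reads of miR-34a-5p in LINC00673 cells and 1588 in NC cells, they added little to the reads carrying these seeds, and none of the 3 passed limma (adjusted p = 0.970, 0.990 and 0.658). The miR-449b-5p arm, which has the seed of miR-34a-5p, and miR-4770 and miR-6088, which have that of miR-143-3p, were not analysed here.

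The miRNAs miR-192, miR-194 and miR-215 are best known from liver, gut and kidney. They include the other abundant member, miR-192-5p, at 610, 788 and 721 CPM in LINC00673 replicates 1, 2 and 3 (232, 585 and 550 reads), against 890, 793 and 619 CPM in NC replicates 1, 2 and 3 (430, 247 and 183 reads). The groups overlapped, and the lowest values of each group, LINC00673 replicate 1 and NC replicate 3, lay within 10 CPM of each other. The means were 706 ± 89.9 CPM in LINC00673 cells and 767 ± 137 CPM in NC cells (SD, n = 3 each), with a log2 difference of -0.11 and a 95% interval of -0.52 to 0.29 (adjusted p = 0.921 in limma, 0.979 in edgeR and 0.787 in DESeq2). The log2 difference of miR-34a-5p, -0.59, lies outside this interval. Its own interval, -0.94 to -0.24, overlaps that of miR-192-5p, and these miRNAs were not tested against each other. Unlike miR-34a-5p, miR-192-5p varied more than counting error predicts, with a coefficient of variation of 12.7% in LINC00673 cells and 17.9% in NC cells, against a counting error of 4.91% and 6.06%.

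The ratio of miR-34a-5p to miR-192-5p within a library does not depend on how libraries are scaled. It was 1.53, 1.27 and 1.38 in LINC00673 replicates 1, 2 and 3, against 1.57, 1.90 and 2.42 in NC replicates 1, 2 and 3. Both groups kept miR-34a-5p above miR-192-5p in CPM, and the ratios did not overlap, though LINC00673 replicate 1 and NC replicate 1 lay close together. The difference between the groups' ratios was not tested. Since miR-34a-5p by itself did not overlap between groups, this ratio is not a separate result. The share of other miRNA pairs whose ratios do not overlap was not counted.

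The precursor of miR-192 is shown with both arms in capitals, since its minor arm was also sequenced.
MIR192: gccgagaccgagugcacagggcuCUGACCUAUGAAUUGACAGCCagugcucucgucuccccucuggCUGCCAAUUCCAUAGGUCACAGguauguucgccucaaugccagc
The 3p arm had 1, 4 and 5 reads in LINC00673 replicates 1, 2 and 3, against 0, 1 and 0 reads in NC replicates 1, 2 and 3. The 5p share of both arms was accordingly 99.57%, 99.32% and 99.10% in LINC00673 libraries and 100%, 99.60% and 100% in NC libraries. These shares did not overlap (exact permutation test, two-sided, p = 0.1, the smallest possible). The closest libraries, LINC00673 replicate 1 and NC replicate 2, each had 1 read of the 3p arm. The difference rests on 11 reads of the 3p arm in all (limma adjusted p = 0.476 for miR-192-3p). Only the miR-34a share had been chosen beforehand for the permutation test. For the miR-194 arms, the mean 5p share was 92.1% in LINC00673 cells and 87.6% in NC cells (exact permutation test, two-sided, p = 0.7). The arm shares of miR-194 and of miR-143 overlapped between groups. How many other miRNAs have arm shares that do not overlap was not counted.

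The neighbour of MIR192 in the genome, miR-194-5p, was far less abundant. Its level was 23.7, 40.4 and 44.6 CPM in LINC00673 replicates 1, 2 and 3 (9, 30 and 34 reads), against 22.8, 51.4 and 13.5 CPM in NC replicates 1, 2 and 3 (11, 16 and 4 reads). The highest and the lowest library were both NC libraries. The means were 36.2 ± 11.1 CPM in LINC00673 cells and 29.2 ± 19.7 CPM in NC cells (SD, n = 3 each; log2 difference 0.45, 95% interval -0.50 to 1.41, limma adjusted p = 0.830). The log2 difference was 0.028 without NC replicate 3 and 0.95 without NC replicate 2. Its other arm, miR-194-3p, had 4 reads in LINC00673 cells and 6 in NC cells (limma adjusted p = 0.957). The ratio of miR-194-5p to miR-192-5p was 3.88% to 6.18% in LINC00673 cells and 2.19% to 6.48% in NC cells, so miR-194-5p lay far below miR-192-5p in all 6 libraries. The level of miR-215-5p was 5.26, 6.74 and 10.5 CPM in LINC00673 replicates 1, 2 and 3 (2, 5 and 8 reads), against 10.4, 6.42 and 3.38 CPM in NC replicates 1, 2 and 3 (5, 2 and 1 reads). Its groups overlapped, and it amounted to 0.855% to 1.45% of miR-192-5p in LINC00673 cells and 0.546% to 1.16% in NC cells (log2 difference 0.20, 95% interval -1.23 to 1.63, limma adjusted p = 0.957).

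In smooth muscle and stromal cells miR-143 and miR-145 are abundant, whereas both were low in these U2OS libraries. The level of miR-143-3p was 18.4, 36.4 and 45.9 CPM in LINC00673 replicates 1, 2 and 3 (7, 27 and 35 reads), against 24.8, 28.9 and 23.7 CPM in NC replicates 1, 2 and 3 (12, 9 and 7 reads). All NC libraries lay inside the range of the LINC00673 libraries. The means were 33.6 ± 14.0 CPM in LINC00673 cells and 25.8 ± 2.74 CPM in NC cells (SD, n = 3 each; log2 difference 0.28, 95% interval -0.60 to 1.15, limma adjusted p = 0.911). The log2 difference was 0.012 without LINC00673 replicate 3 and 0.65 without LINC00673 replicate 1. Its neighbour miR-145-5p, reported to target MYC, had 2, 2 and 0 reads in LINC00673 replicates 1, 2 and 3 (5.26, 2.69 and 0 CPM), against 0, 1 and 1 reads in NC replicates 1, 2 and 3 (0, 3.21 and 3.38 CPM). These values were under the floor of 3 reads in every library, and no difference was detectable at this depth (95% interval of the log2 difference -1.93 to 2.15, limma adjusted p = 0.988). The minor arms miR-34c-3p, miR-143-5p and miR-145-3p had 2, 1 and 1 reads over all libraries, under the mean of 1 CPM needed for a test, and miR-34b-3p and miR-215-3p were not analysed here.

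**Figure D4:**
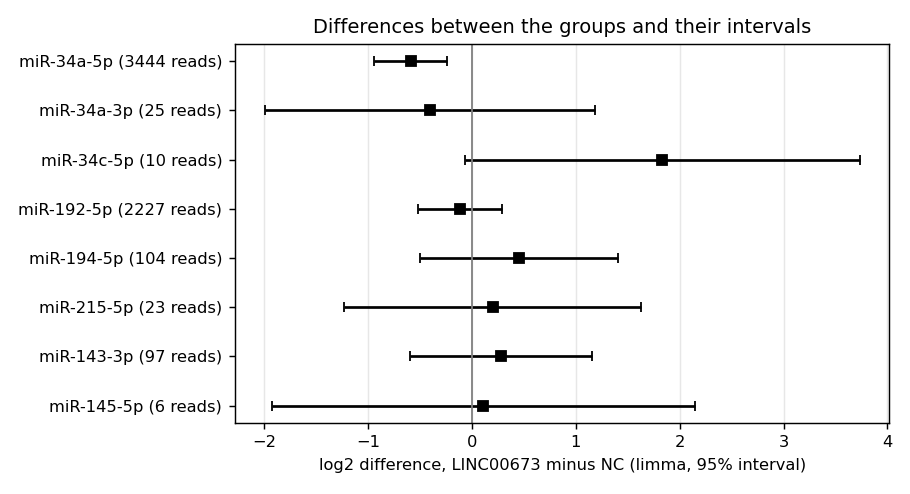
Log2 difference, LINC00673 minus NC, of the 8 members tested, with limma's 95% intervals as bars and the total reads over 6 libraries beside each name. The interval of miR-34a-5p lies below 0 and those of the other 7 include 0. The intervals tend to widen as the reads become fewer, though not at every step.

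Of the 8 members tested, 0 passed limma and 0 passed edgeR. DESeq2 passed 1, miR-34a-5p, as lower, of the 2 to which it gave an adjusted p. Over all miRNAs tested, 0.247% passed limma and 2.72% passed edgeR in either direction. DESeq2 called 4.69% of those with an adjusted p as lower. At an unadjusted limma p under 0.05 there was 1 member, miR-34a-5p, among 4.44% of the miRNAs tested that were lower at this level. The log2 difference was above 0 for 5 members and below 0 for 3, with a median of 0.15 beside 0.06 over all 810 miRNAs tested. The summed level of the 9 members was 1604 to 1885 CPM in LINC00673 cells and 2175 to 2408 CPM in NC cells. With miR-34a-5p left out, the sums overlapped, at 671 to 886 CPM in LINC00673 cells and 677 to 952 CPM in NC cells. The groups' sums were thus separate only with miR-34a-5p included.

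**Figure D5:**
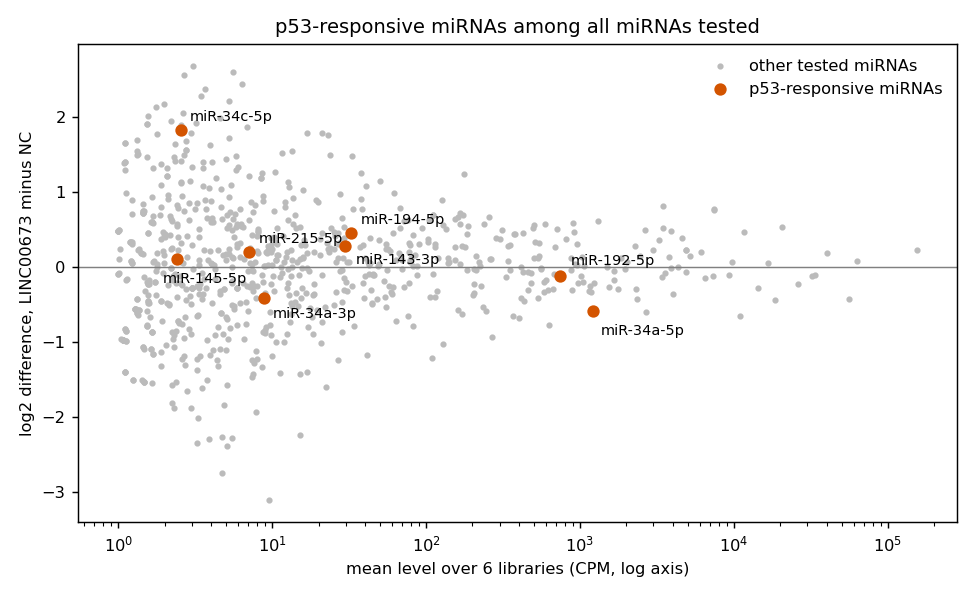
Log2 difference, LINC00673 minus NC, of the 810 miRNAs tested (grey) and the 8 tested members (orange) against their mean level in CPM on a log axis. The member farthest below 0 is miR-34a-5p, at -0.59 among miRNAs of high level, and miR-34c-5p at 1.83 lies where low miRNAs scatter widely.

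Other miRNAs reported as induced or matured under p53 were read from a list of 11, of which 8 were tested and 0 passed limma. As lower, 1 passed edgeR (miR-1246) and 1 passed DESeq2 (miR-16-5p). Over all miRNAs, edgeR called 2.72% in either direction, and DESeq2 called 4.69% of those with an adjusted p as lower. The median log2 difference of the 8 was -0.22, and 2 were above 0. In this list miR-16-5p, which targets cyclin transcripts and is made from genes next to those of miR-15a and miR-15b, was the most abundant, at 47126, 48078 and 48339 CPM in LINC00673 replicates 1, 2 and 3, against 68892, 61493 and 62937 CPM in NC replicates 1, 2 and 3. Its LINC00673 libraries all lay below its NC libraries, as for 7.65% of the miRNAs tested. The log2 difference of miR-16-5p was -0.43 (95% interval -0.72 to -0.14, adjusted p = 0.182 in limma, 0.223 in edgeR and 0.0468 in DESeq2). Relative to miR-16-5p, miR-34a-5p amounted to 1.98%, 2.08% and 2.06% in LINC00673 replicates 1, 2 and 3, against 2.03%, 2.45% and 2.38% in NC replicates 1, 2 and 3, so this ratio overlapped between groups. The level of miR-1246, whose name also collects fragments of U2 small nuclear RNA, was 4.84 ± 1.97 CPM in LINC00673 cells and 25.6 ± 4.88 CPM in NC cells (SD, n = 3 each; limma adjusted p = 0.0715, edgeR adjusted p = 0.0179), from 9 reads in LINC00673 cells and 27 in NC cells. The others of at least 10 CPM overlapped between groups: miR-22-3p stood at 202 ± 32.7 CPM in LINC00673 cells and 207 ± 47.7 CPM in NC cells, miR-15a-5p at 168 ± 29.01 CPM in LINC00673 cells and 142 ± 42.3 CPM in NC cells, and miR-107, encoded in an intron of PANK1, at 67.9 ± 9.53 CPM in LINC00673 cells and 72.2 ± 29.5 CPM in NC cells (SD, n = 3 each).

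The 3 miRNAs of at least 100 CPM whose levels followed miR-34a-5p most closely over the 6 libraries were let-7i-5p (Pearson's r = 0.98 on log2(CPM + 1), 163 candidates), miR-16-5p (0.94) and miR-199a-5p (0.93). All 3 were lower in LINC00673 libraries by their means: let-7i-5p stood at 15687 ± 217 CPM in LINC00673 cells and 21281 ± 454 CPM in NC cells, and miR-199a-5p at 194 ± 10.7 CPM in LINC00673 cells and 293 ± 29.5 CPM in NC cells (SD, n = 3 each; limma adjusted p = 0.182 and 0.252). For miR-192-5p the closest were miR-27b-3p (0.98), miR-126-5p (0.97) and miR-151a-3p (0.95), none of them past limma (adjusted p = 0.661, 0.825 and 0.586). These correlations describe 6 libraries that share their scaling and their groups, and were picked as the highest of many.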

How the data were processed

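Small RNA libraries (NEBNext kit, TRIzol RNA, per the labels' protocols) came from 3 LINC00673 and 3 NC samples of U2OS cells. The authors deposited 1 table of CPM values per mature miRNA and library, built on hg38 per the submitters' processing notes. Aligner, counter and miRBase release were not given in the sources used here. Values above 0 were whole multiples of what 1 read is worth in their library (100% within 0.1 read), which gave back the reads. Each library's listed miRNAs made up 68.6% to 72.0% of its CPM total. Reads are not independent molecules, so intervals and the floor of 3 reads cover counting error only.

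The members, the lists and the naming rule were chosen with earlier results of these data known. The result of 1 list is not reported here. The rule named all members, their other arms, miRNAs with a member's seed and the 3 miRNAs most like each member of at least 100 CPM, and allowed p53-induced miRNAs of at least 10 CPM from a list. Differences were tested with limma 3.58.1 in R 4.3.3, two-sided and with an intensity trend, on log2(CPM + 1) of miRNAs that averaged 1 CPM or more, with Benjamini-Hochberg adjustment over all of them. This scale understates the change of low miRNAs. edgeR 4.0.16 (22 miRNAs called, 15 higher and 7 lower) and DESeq2 1.42.0 (5 higher and 10 lower) on recovered reads were alternatives. Replicates of a group differed beyond sampling noise in all pairs (chi-square per degree of freedom 2.73 to 55.9), so each counted as 1 sample. Scripts were tested on simulated counts. Mature and precursor sequences are from RefSeq (GRCh38.p14), hosts from GENCODE 29.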

Additional observations from a re-analysis of the deposited data

How the results depend on the processing

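Settings that could change a result were a pseudocount of 0.5 or 5 CPM, no filter or a mean of at least 10 CPM, other scalings, no intensity trend, edgeR, DESeq2, thinned reads, the replicate number as a block and each library left out. Leaving libraries out in edgeR and DESeq2 was added for miR-34a-5p after the data were seen. The direction was the same in all fits run for miR-34a-5p (31), miR-194-5p (19) and miR-34c-5p (18, as the stricter filter removes it). For miR-34a-5p and miR-34c-5p, whose groups do not overlap, leaving out a library or changing the pseudocount could not change the sign in limma. Over all libraries, DESeq2 called miR-34a-5p (-0.59). With libraries left out, its log2 difference was -0.62 to -0.56 in limma, -0.54 to -0.46 in edgeR and -0.62 to -0.57 in DESeq2. The count of members called was 0 in limma and 1 in DESeq2, and 0 to 1 in limma with a library left out. Over all miRNAs, limma called 0.247% in either direction, and DESeq2 called 4.69% of those with an adjusted p as lower.

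With reads thinned to 211242 per library, miR-34a-3p turned to 0.30, miR-143-3p to -0.056 and miR-145-5p to -0.43; the cause was not tested. With libraries left out, limma's log2 difference took both signs for miR-34a-3p (-1.19 to 0.057), miR-192-5p (-0.26 to 0.0036), miR-215-5p (-0.16 to 0.53) and miR-145-5p (-0.59 to 0.86). It was 0.028 to 0.95 for miR-194-5p and 0.012 to 0.65 for miR-143-3p. The difference in the miR-34a 5p share ranged from -0.219 to 0.290 percentage points.

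Over all miRNAs, limma called 2, and 0 with a pseudocount of 0.5 CPM, a mean of at least 10 CPM, quantile normalization or no trend. It called 8 with a pseudocount of 5 CPM, 11 without a filter, 4 when rescaled without the 10 most abundant and 6 on thinned reads. On recovered reads 22 were called by edgeR with TMM, 18 by edgeR with DESeq2's size factors and 15 by DESeq2. With a library left out, limma called 0 to 28, the highest without NC replicate 3. The median log2 difference of all miRNAs tested was 0.06 in limma, 0.12 in edgeR and 0.01 in DESeq2.

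Replicate numbers were shared between groups, but same-numbered libraries correlated by 0.12, 0.15 and 0.03 in their deviations from the group means, so the numbers were not read as pairs; each library did correlate best with its own number. With the replicate block the count of calls was 2, and miR-34a-5p had a log2 difference of -0.59 (limma adjusted p = 0.155). Depth limits what can be said of the 5 members under 10 CPM.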
